A study of Mus musculus with 11 samples.

Results

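The control yolk sac at embryonic day 9.5 was described from 4 of the 11 bulk RNA sequencing libraries of the series. The 4 were taken by their group label, with no use of any measured value. Per the labels these mice carry the genotype Hand1 fx/+, meaning 1 floxed Hand1 allele beside a normal allele, and no Cre allele is named for them. The column names call them wild type. The remaining libraries carry Hand1 mutations or a HAND2 replacement and enter no value below. The tissue was kept in RNAlater, and the whole organ was used, so each library mixes all its layers. The column names carry the yolk sac numbers 1, 1, 3 and 7 for controls 1 to 4. The labels give no litter and do not settle whether controls 1 and 2 came from separate embryos. The spread given below is therefore between libraries and may be technical in part.

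The yolk sac surrounds the mouse embryo and feeds it before the placenta does. Its visceral endoderm, an absorptive epithelium, takes up maternal protein and lipid through endocytosis and secretes plasma proteins much as the fetal liver later does. Its extraembryonic mesoderm lies on the other side of a thin basement membrane and gives rise to the vitelline vessels, the mesothelium and the first, primitive erythrocytes. HAND1 is a basic helix-loop-helix transcription factor of that mesoderm.

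The libraries held 13948560 to 15465289 counts over 15061 listed genes, and between 14891 and 14967 genes had a count in a library. The ribosomal RNA precursor Rn45s took 5.76% to 11.4% of the counts and was left out of the levels below. Levels are given as TPM, counts per kilobase of the listed gene length scaled to the same total in each library. Spread between libraries was taken from CPM, counts scaled to a common library size with TMM factors, and is given as the coefficient of variation (CV). Controls 1 and 2 carry the same yolk sac number in their column names. Across genes the correlation (Pearson) of log2 CPM between them was 0.979, within the 0.969 to 0.986 of the 6 pairs, and the chi-square of their counts came to 24.3 per degree of freedom, far above the value of 1 that counting error gives. With TMM scaling, the median squared deviation over genes was 3.13 times that of counting error. This was the lowest of the 6 pairs, which ran up to 4.43. These values cannot tell whether controls 1 and 2 came from the same yolk sac. They were counted as separate libraries. Control 3 had Y-linked transcripts and 1.24 CPM of Xist, whereas the others had 1677 to 1823 CPM of Xist, so that 1 library was male and 3 were female.

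Some libraries stood apart in markers of neighbouring tissues. Control 2 held 672 TPM of Lama1, a basement membrane laminin chain abundant in parietal endoderm, against 62.5 to 76.8 TPM in the others. It also held 271 TPM of Prl3d1, a placental lactogen of trophoblast giant cells, against 6.40 to 13.8 TPM. Prl3d1 has near-identical copies in its family, so its reads may be shared among them. Control 1 held 12.3 TPM of the atrial heart myosin Myh6, against 0.0577 to 0.157 TPM elsewhere. The part of the tissues these genes mark in any result below was not tested. Some of the results that rest on controls 1 or 2, but not all, are also given without them. Hand1, Pdgfra, Snai1, Gata6, Sox17 and Sox7, named below under other tissues, were highest in control 2 as well. Which tissue their reads came from there was not tested.

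The promoters of genes that moved together across libraries are shown first, because the primitive erythroid genes had a shared order among the 4 libraries. Sequences are the 250 bases before the RefSeq start on GRCm38.p6. Capitals mark a GATA motif, AGATAA or TGATAA on either strand, the letters bound by the erythroid factor GATA1 and its relatives.
Hba-x (chr11:32276350-32276599, plus strand): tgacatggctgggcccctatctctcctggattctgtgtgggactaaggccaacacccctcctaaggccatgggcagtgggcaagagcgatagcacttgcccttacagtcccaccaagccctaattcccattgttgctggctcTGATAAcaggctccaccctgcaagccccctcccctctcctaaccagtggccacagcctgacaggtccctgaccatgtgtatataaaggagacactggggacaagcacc
Hbb-y (chr7:103853208-103853457, minus strand): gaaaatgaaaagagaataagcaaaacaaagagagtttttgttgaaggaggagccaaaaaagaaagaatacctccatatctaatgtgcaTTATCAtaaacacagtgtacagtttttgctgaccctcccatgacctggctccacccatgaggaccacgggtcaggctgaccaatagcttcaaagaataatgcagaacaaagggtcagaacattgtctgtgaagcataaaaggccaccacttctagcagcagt
Alas2 (chrX:150547167-150547416, plus strand): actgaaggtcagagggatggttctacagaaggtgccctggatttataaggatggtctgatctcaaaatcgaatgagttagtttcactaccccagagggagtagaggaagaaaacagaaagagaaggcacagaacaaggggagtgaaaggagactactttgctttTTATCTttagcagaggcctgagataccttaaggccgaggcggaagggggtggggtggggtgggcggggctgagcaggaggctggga
The match nearest the start lies 108 bases before it in Hba-x, 162 in Hbb-y and 86 in Alas2.

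Of the 17 listed primitive erythroid genes, 11 had a promoter sequence and 9 of these held a GATA motif (81.8%), against 1313 of 11206 promoters of all listed genes (11.7%) and 6 of 28 visceral endoderm promoters (21.4%). These counts describe letters in a window of 250 bases and not binding.

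The control transcriptome was broad, with a short list of very abundant transcripts. At least 1 TPM was measured in all 4 libraries for 12897 genes (85.6% of the listed genes), at least 10 TPM for 9224, at least 100 TPM for 1734 and at least 1000 TPM for 102. The median listed gene stood at 20.4 TPM, and 21 genes had no count. The 10 most abundant genes held 9.22% ± 1.17 of all TPM (SD, n = 4), the top 30 held 14.8% ± 0.895, the top 100 held 25.2% ± 0.905 and the top 500 held 45.6% ± 0.704.

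With Rn45s left out, H19, an imprinted noncoding RNA, had the highest mean level of the listed genes, at 13429, 13174, 13377 and 13391 TPM in controls 1 to 4. The SD of these 4 values was 115 TPM. Among the 30 most abundant genes were 6 of the visceral endoderm and lipid export lists: the fetal plasma protein gene Afp, the lipid carriers Apoa1, Apoe and Apob, the thyroxine carrier Ttr, and Cubn, which encodes the endocytic receptor cubilin. The same 30 held the embryonic globins Hba-x, Hbb-y and Hbb-bh1. They also held 9 ribosomal protein genes of the 80 listed, which together made up 8.94% ± 0.178 of TPM, and the housekeeping genes Actb, Eef1a1, Hspa8, Hsp90ab1 and Calr. Several of the ribosomal protein genes (Rps2, Rpl7a, Rps15, Rpl4, Rpl41 and Rpl32), Eef1a1 and the ferritin gene Ftl1 have near-identical copies, so their levels are uncertain.

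Short noncoding RNAs took high ranks, in part through their length. Rpph1, the RNA of ribonuclease P, stood at 18098, 11458, 13417 and 6845 TPM with a listed length of 325 bases. Its mean was 1457 CPM, so it was abundant before scaling by length. Mir6236, of 123 bases, stood at 883, 876, 8692 and 2900 TPM, and its highest library was control 3, where the ribosomal precursor was also highest. AF357359, with a listed length of 30 bases, stood at 3543 ± 861 TPM from a mean of 38.4 CPM. Levels of genes this short depend on few positions per transcript.

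**Figure D1:**
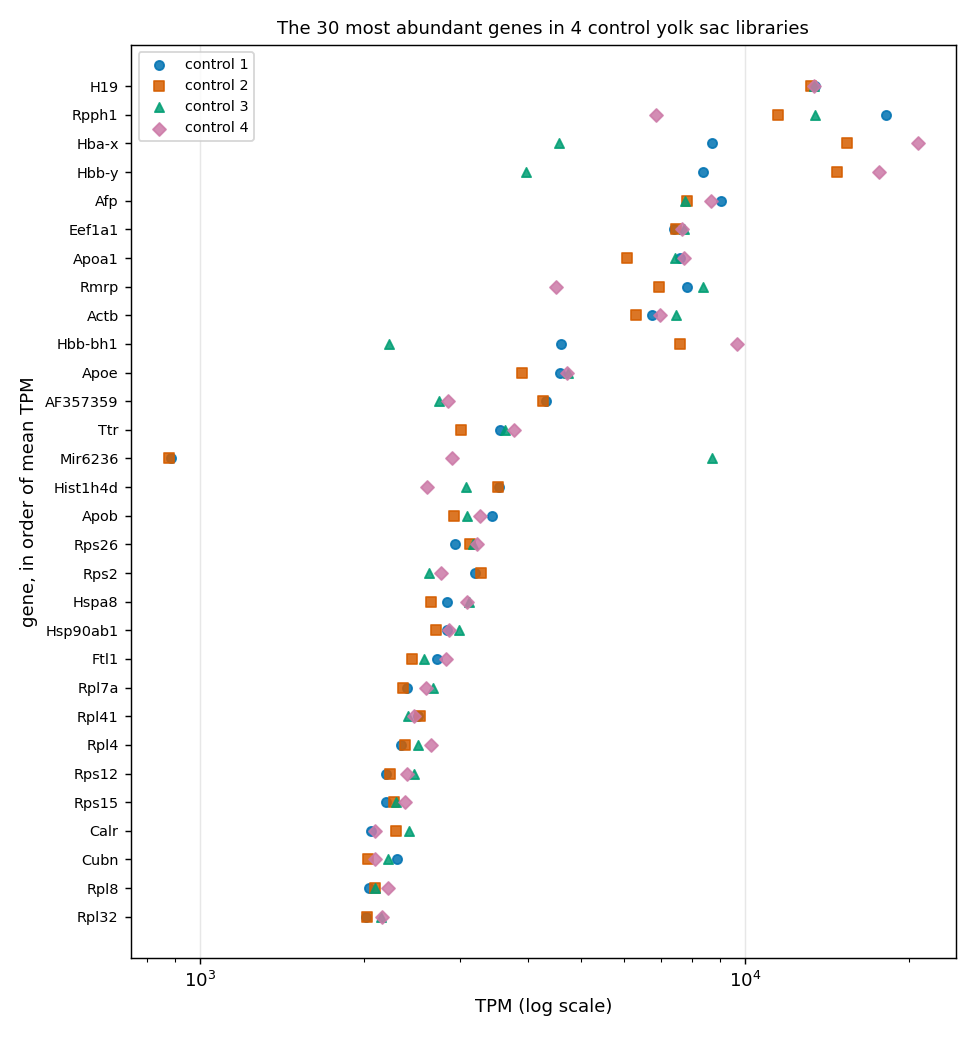
Level of the 30 most abundant genes in each of the 4 control libraries, in TPM on a log axis, with 1 point per library and genes ordered by mean. The H19, Afp and Eef1a1 points lie close together, the embryonic globins run from control 3 (lowest) to control 4 (highest), and Mir6236 is highest in control 3.

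Visceral endoderm transcripts had the highest summed level of any tissue list. The 34 listed markers summed to 42256, 36969, 41403 and 42756 TPM (40846 ± 2644), and 34 of 34 reached 1 TPM in all 4 libraries, beside 85.6% of all listed genes. By CPM, 27 of the 34 were lowest in control 2 (79.4%), against 28.1% of all genes at 5 CPM or more. The primitive erythroid list followed at 30150 ± 16879 TPM, with ranges that overlapped those of the endoderm and the endoderm higher in 2 of 4 libraries. Extraembryonic mesoderm (4653 ± 306 TPM over 17 genes) and endothelium (1158 ± 122 TPM over 23 genes) came next, each below its upper neighbour in 4 of 4 libraries with no overlap. Lists differ in length and in the abundance of their genes, so the sums order transcripts and not cells. In bulk tissue, fewer cells of a type and less RNA per cell cannot be told apart.

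Further down, smooth muscle genes summed to 424 ± 66.2 TPM, venous genes to 296 ± 28 and arterial genes to 230 ± 26. Blood progenitor genes summed to 146 ± 22.5 TPM, mesothelial genes to 129 ± 17.2, macrophage genes to 103 ± 3.73 and megakaryocyte genes to 47.7 ± 7.10. Smooth muscle overlapped in range with parietal endoderm, which rests on control 2. Arterial and progenitor sums did not overlap, whereas progenitor and mesothelial sums did. With 4 libraries a two-sided exact paired permutation test gives at best a p of 1 in 8, so no difference between lists was called by a test.

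**Figure D2:**
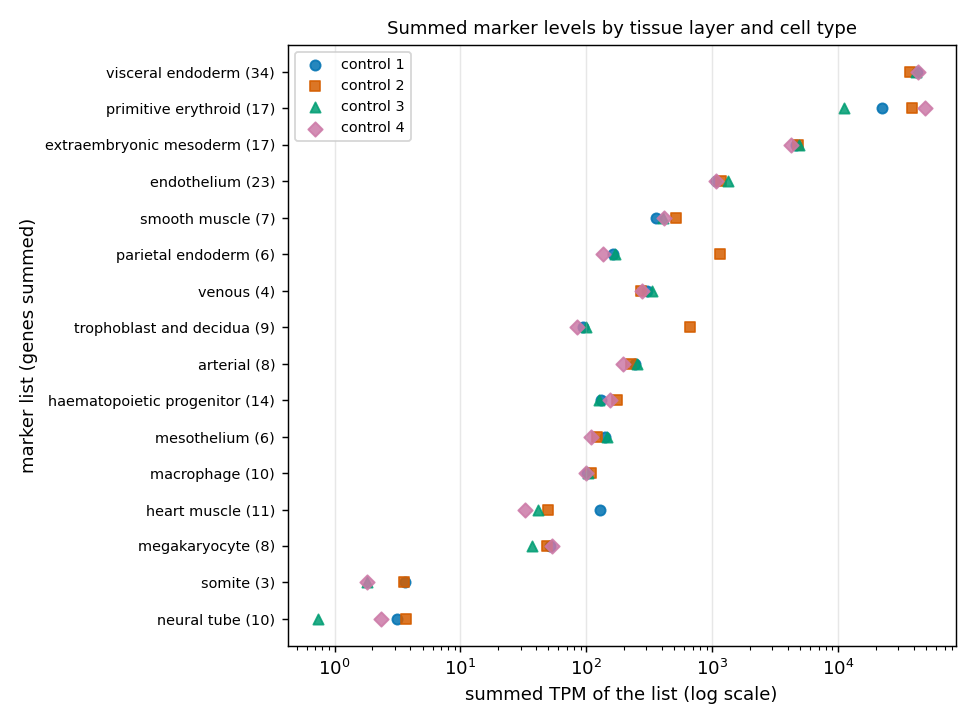
Summed TPM of 16 marker lists in each control library, on a log axis, with the number of genes summed in brackets. Visceral endoderm, mesoderm, endothelium and macrophage sums vary little between libraries, primitive erythroid sums run from 11013 to 48980 TPM, and control 2 stands apart for parietal endoderm and trophoblast and control 1 for heart muscle.

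Secreted plasma proteins led the endoderm. Afp (chr5:90490714-90508907 in mm10, plus strand), the gene of the main fetal plasma protein, stood at 9025, 7815, 7748 and 8639 TPM and ranked 5 of all genes. Ttr stood at 3552, 3009, 3632 and 3766 TPM, and Afp exceeded it in 4 of 4 libraries, by 2.39-fold ± 0.217. Alb, the adult counterpart of Afp, stood at 5.53 TPM in control 1 and at 0.468 to 0.601 TPM in the others, so the adult gene was low in all 4 libraries.

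The 3 fibrinogen chains, which form the clot, lay close together, with Fgb at 634 ± 38.1 TPM, Fgg at 552 ± 47.2 and Fga at 388 ± 20.7. The transferrin gene Trf, which has a near-identical read-through model, stood at 1564 ± 111 TPM. The retinol carrier Rbp4 stood at 1969, 1623, 2422 and 2078 TPM. Lower levels were found for prothrombin F2 (74.4 ± 3.24 TPM), of clotting. The same held for plasminogen Plg (102 ± 6.87) and the plasmin inhibitor Serpinf2 (281 ± 8.53), of clot dissolution. Some plasma protein genes were near the bottom of the list: haptoglobin Hp had 1.75 ± 0.706 TPM, haemopexin Hpx 1.53 ± 1.11, complement C3 0.733 ± 0.402 and ceruloplasmin Cp 0.0609 ± 0.0348.

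Lipid export genes formed a second abundant group, with a sum over 14 listed genes of 19676 ± 1473 TPM. Apoa1 (chr9:46228630-46230469, plus strand), the main protein of high-density lipoprotein, stood at 7595, 6077, 7429 and 7713 TPM, lowest in control 2. Apoe stood at 4571, 3901, 4720 and 4707 TPM, again lowest in control 2. Apob, the structural protein of larger lipoproteins, stood at 3175 ± 220 TPM, and Mttp, which loads lipid onto it, at 290 ± 26.8. Apoa4, Apoa2 and Apom stood at 1606 ± 120, 1320 ± 135 and 1297 ± 103 TPM. Apoa5 and Apoc4 were low, at 8.11 ± 1.97 and 1.88 ± 0.903 TPM.

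Uptake was represented by the receptors cubilin and megalin and their partners. Cubn stood at 2294, 2036, 2207 and 2095 TPM. Lrp2, the gene of megalin, stood at 322, 311, 327 and 326 TPM, which is 0.149 ± 0.00674 of Cubn and lower in 4 of 4 libraries. Both had small spread, with CVs of 4.21% for Cubn and 3.65% for Lrp2. Amn, whose product anchors cubilin, stood at 350 ± 17.7 TPM, and the clathrin adaptor Dab2 at 1009 ± 90.0.

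The 12 lysosomal genes, which digest the cargo, summed to 7131 ± 541 TPM. The proteases Ctsl, Lgmn and Ctsz led at 1496 ± 122, 1145 ± 184 and 1138 ± 133 TPM, and the membrane protein Lamp1 stood at 910 ± 48.5. Iron handling genes summed to 5637 ± 398 TPM, led by Ftl1, Trf and the ferritin heavy chain Fth1 (777 ± 116 TPM). The iron exporter Slc40a1 stood at 114 ± 9.86 TPM. The transferrin receptor Tfrc, which erythroid cells also use, varied with 84.4, 116, 77.4 and 166 TPM, lowest and highest in the same libraries as the globins.

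Endoderm transcription factors were each present at modest levels. Hnf4a, a regulator of lipoprotein genes in liver, led at 277, 247, 292 and 283 TPM. Foxa2 (41.8 ± 2.08 TPM) and Foxa3 (39.4 ± 3.22) exceeded Foxa1 (7.60 ± 2.35). Gata6 stood at 49.6, 118, 51.5 and 36.7 TPM, and without control 2 its mean fell from 64.0 to 45.9 TPM. Gata4, its relative, stood at 87.8, 104, 80.2 and 67.8 TPM and was above Gata6 in 3 of 4 libraries, the exception being control 2. Sox17 stood at 14.9 TPM in control 2 and at 6.34 to 6.45 TPM in the others.

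**Figure D3:**
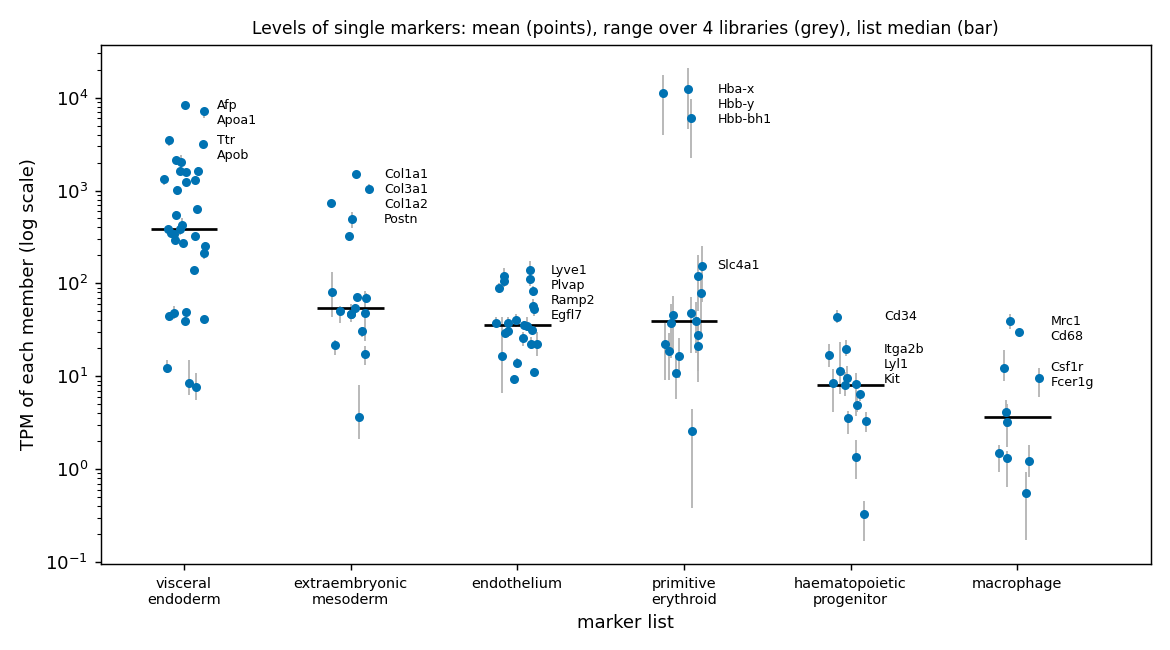
Level of each member of 6 marker lists, in TPM on a log axis. Points are means of 4 libraries, grey lines run from the lowest to the highest library, black bars are list medians, and the 4 most abundant members are named. Visceral endoderm markers reach the highest median, and most erythroid members have longer grey lines than most members of the other lists.

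Mesodermal transcripts were led by matrix genes, with transcription factors far below. The fibrillar collagen genes Col1a1, Col3a1 and Col1a2 stood at 1495 ± 34.3, 1051 ± 86.9 and 741 ± 32.6 TPM, and Postn and Lum, of the extracellular matrix, at 499 ± 81.5 and 327 ± 27.2. Col1a1 had a CV of 1.62%, and Col1a2 stood at 0.479 to 0.517 of Col1a1. Dcn, another matrix proteoglycan, stood at 70.9 ± 5.15 TPM.

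Hand1 (chr11:57828713-57832147, minus strand) stood at 85.4, 134, 60.2 and 43.5 TPM, highest in control 2 and lowest in control 4, a 3.07-fold range. Its mean was 80.7 ± 39.2 TPM, rank 2491 of 15061, and 63 ± 21.1 TPM without control 2. Its relative Hand2 stood at 54.3, 52.7, 57.6 and 37.6 TPM. Hand1 exceeded Hand2 in 4 of 4 libraries, by 1.05 to 2.53-fold. The CV of CPM was 48.2% for Hand1 and 15.8% for Hand2 over the 4 libraries, and 31.2% and 19.3% without control 2.

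Several other mesodermal factors had a smaller range. Foxf1, a target of hedgehog signals, stood at 74.9, 61.9, 79.4 and 62 TPM, and Tbx20 at 54.5 ± 3.86 TPM. Pitx1, Meis1 and Meis2 stood at 46.3 ± 8.98, 43.4 ± 8.87 and 28.2 ± 8.85 TPM. Snai1, Tbx4 and Pdgfra were highest in control 2, with 36.3, 17.3 and 83.4 TPM there against at most 8.07, 3.45 and 46.3 TPM elsewhere. Of 19 mesoderm transcription factors, 14 were lowest in control 4 by CPM (73.7%), against 24.1% of all genes at 5 CPM or more.

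The genes whose levels across the 4 libraries lay closest to those of Hand1 were sought among 7588 genes with at least 20 CPM. Likeness was the mean absolute difference of log2 CPM after centring each gene on its own mean, over 4 libraries only. The nearest were Mical2 at 0.10, Pdgfra at 0.10, Kif26b at 0.11, Flrt3 at 0.15, Col9a1 at 0.16, Capn6 at 0.16, Spon1 at 0.17 and Epas1 at 0.20. In 8 of 8 the highest library was control 2, against 24.3% of all genes at 5 CPM or more. Hand1 was itself highest there, so a choice by likeness to Hand1 favours such genes. A likeness over 4 values shared by many genes of that library is a description only.

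Mesothelium was represented mainly by Upk3b, a uroplakin of the mesothelial surface, at 78.3, 60.1, 77.5 and 58.3 TPM. Bnc1 stood at 22.8 ± 3.79 TPM and Upk1b at 22 ± 4.29. Wt1, a factor of mesothelium elsewhere in the embryo, stood at 8.72, 5.87, 4.20 and 1.99 TPM.

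Vessel transcripts had intermediate levels, and at 5 CPM or more their median CV beyond counting error was 12.1%, against 5.82% of all genes. Cdh5 (chr8:104101625-104144502, plus strand), the gene of VE-cadherin at endothelial junctions, stood at 81.5, 100.4, 97.7 and 79.1 TPM. The 23 endothelial markers were led by the hyaluronan receptor Lyve1 (138 ± 26.5 TPM) and the diaphragm protein Plvap (122 ± 18.4). Kdr, the main VEGF receptor, stood at 77.9, 84.3, 94.1 and 72.9 TPM and exceeded Flt1, the decoy-like receptor, in 4 of 4 libraries by 2.84-fold ± 0.173. Tek exceeded Tie1 by 1.53-fold ± 0.0928 in the same 4. Among 23 genes, 15 were highest in control 3 (65.2%, against 24.2% of all genes) and 11 were lowest in control 1 (47.8%, against 21.6%).

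Arterial and venous genes were both present. The venous receptors Ephb4 and Nrp2 stood at 85.7 ± 9.19 and 125 ± 16.7 TPM, and the venous factor Nr2f2 at 33.9 ± 6.27. The arterial ligand Efnb2 stood at 24.6 ± 4.54 TPM, the connexins Gja5 and Gja4 at 26.5 ± 3.40 and 9.92 ± 1.14, and the Notch ligand Dll4 at 6.70 ± 1.11. Smooth muscle contractile genes were split, with Acta2 at 224 ± 34 TPM, Myl9 at 90.4 ± 13.4 and Tagln at 89.5 ± 10.2, while Cnn1 and the regulator Myocd stayed at 1.81 ± 0.794 and 1.26 ± 0.873. Sox7 was the exception among factors of the endothelium list, at 43.2 TPM in control 2 and 6.61 to 9.28 TPM elsewhere. Parietal endoderm and trophoblast markers were also high in control 2, and the source of its Sox7 was not tested.

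Primitive erythroid transcripts spanned a wide range, with list sums of 22123, 38483, 11013 and 48980 TPM, a 4.45-fold spread against 1.16-fold for visceral endoderm and 1.16-fold for extraembryonic mesoderm. Hbb-y (chr7:103851754-103853207, minus strand), the embryonic beta-type globin, stood at 8366, 14724, 3968 and 17556 TPM. Hba-x, the embryonic alpha-type globin, stood at 8703, 15355, 4560 and 20739 TPM, and Hbb-bh1 at 4591, 7603, 2219 and 9642 TPM. For all 3 the order was control 3, 1, 2 and 4 from low to high. Their proportions held while their levels moved: Hba-x made up 41.7% ± 1.44 of globin TPM, Hbb-y 37.8% ± 1.22 and Hbb-bh1 20.5% ± 0.502, and Hbb-y over Hbb-bh1 ran from 1.79 to 1.94.

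The same order was found outside the globins. The 14 other erythroid genes summed to 463, 801, 265 and 1044 TPM, a 3.93-fold range. They include Slc4a1, the band 3 anion exchanger of the red cell membrane, at 108, 194, 63 and 253 TPM, and Alas2, the first enzyme of erythroid haem synthesis, at 82.6, 144, 49.97 and 203 TPM. The erythroid factors Klf1 (31, 60.1, 17.6 and 72.9 TPM) and Gata1 (17.4, 23.8, 9.18 and 37.7 TPM) kept it too. Of 17 erythroid genes, the globins included, 17 were lowest in control 3 by CPM. In the full order 3, 1, 2 and 4 were 16 of them (94.1%), against 5.62% of all genes at 5 CPM or more. No low-count filter was set on the 17, and the exception was Cldn13, at a mean of 1.00 CPM. The order was read from the globins of these same data, so this count is a description only. At least 2-fold below the lowest of the other libraries in control 3 were 4 of 16 tested erythroid genes, beside 0.175% of all genes.

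Progenitor and macrophage sums had ranges of 1.38-fold and 1.08-fold. Mrc1 made up 37.9% of the macrophage sum, and single members ranged more widely than the sum. Mrc1 and Cd68 ranged 1.46-fold and 1.15-fold, and the lower Csf1r and C1qb 2.15-fold and 2.93-fold. The median macrophage member, in log2 TPM around its own mean, ran from -0.340 in control 3 to 0.320 in control 2. Among the progenitor markers, the surface protein Cd34, which endothelium also carries, stood at 43.9 ± 6.84 TPM, the early platelet and progenitor integrin Itga2b at 19.6 ± 3.77, and Runx1, the factor of definitive blood formation, at 6.40 ± 0.669. Kit stood at 9.49, 23.5, 6.47 and 6.54 TPM and at 7.5 ± 1.72 TPM without control 2. Myb, a factor of definitive progenitors, stood at 3.57 ± 0.826 TPM. Macrophage markers were led by Mrc1 (39.1 ± 6.08 TPM) and Cd68 (30.3 ± 1.78), with Csf1r at 10.5, 19.2, 8.96 and 10.6 TPM. The platelet chemokine gene Pf4 stood at 25.2 ± 5.15 TPM.

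**Figure D4:**
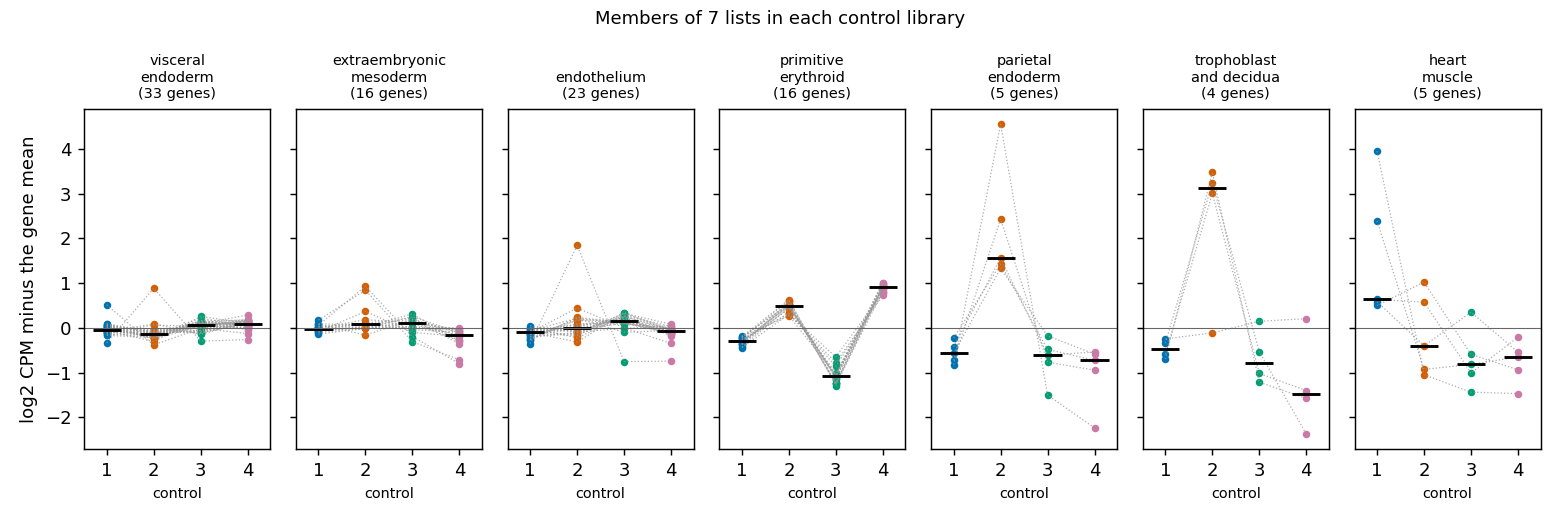
Log2 CPM of each list member minus its own mean over the 4 control libraries, for members at 5 CPM or more. Points are genes, dotted lines join 1 gene across libraries, and black bars are list medians. The erythroid median runs from -1.08 in control 3 to 0.91 in control 4. Parietal endoderm and trophoblast medians are highest in control 2, and heart muscle is highest in control 1. The filter used the mean of all 4 libraries, so members high in 1 library only could enter through it.

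Ligands and receptors of signals known to pass between the layers were measured in the whole tissue. Ihh, the hedgehog ligand of visceral endoderm, stood at 40.4, 39.6, 48.3 and 48.5 TPM, whereas Shh stood at 2.97, 0.932, 0.838 and 0.0658 and Dhh at 1.3 ± 0.379. The receptor Ptch1, itself a hedgehog target, stood at 105, 89.5, 123 and 102 TPM, Smo at 59.8 ± 6.85 and the effector Gli1 at 17.8, 11.6, 22.3 and 15.2. Ihh thus exceeded Shh in 4 of 4 libraries. Ptch1 and Gli1 were both lowest in control 2 and highest in control 3. By CPM, 5 of 10 hedgehog genes were lowest in control 2 (50%), against 28.1% of all genes at 5 CPM or more. Highest in control 3 were 4 of 10 (40%, against 24.2%).

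Vegfa, the main growth factor of endothelium, stood at 58.1, 49.5, 59.4 and 54.1 TPM and exceeded Vegfb in 4 of 4 libraries by 1.33-fold ± 0.0768. Vegfc (11.7 ± 3.61 TPM) and Pgf (5.09 ± 2.03) were lower. Angpt1, the activating ligand of the TEK receptor, stood at 15.3 ± 1.47 TPM, and Angpt2, its context-dependent antagonist, at 4.62, 9.77, 4.11 and 3.45 TPM.

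Among BMP ligands, Bmp4 stood at 46.4 ± 6.42 TPM and Bmp7 at 43.1 ± 2.77, with Bmp6 and Bmp2 at 22.2 ± 4.03 and 11.8 ± 4.81. The receptor Bmpr1a stood at 59.4 ± 5.50 TPM. The BMP target genes Id2, Id1 and Id3 were high, at 306 ± 21, 120 ± 11.8 and 81.2 ± 14.1 TPM, and all 3 were lowest in control 2. By CPM, 9 of 19 BMP and TGF-beta genes were lowest there (47.4%), against 28.1% of all genes at 5 CPM or more. Among FGF receptors, Fgfr1 led at 61.4 ± 3.68 TPM, with Fgfr3, Fgfr2 and Fgfr4 at 38.8 ± 4.22, 36.6 ± 7.30 and 34.4 ± 3.79.

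Retinoid genes were split by step. Carriers were abundant, as given above for Rbp4 and Ttr. The enzymes that make retinoic acid were low, with Aldh1a2 at 3.59, 2.53, 2.15 and 0.155 TPM. The retinal-forming Rdh10 stood at 31.4 ± 2.71 TPM and the receptor Rara at 35.1 ± 2.95. The binding protein Crabp1 stood at 15.1, 7.86, 33.9 and 3.50 TPM and had a CV of 88.6%.

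The list of 17 imprinted genes summed to 20974 ± 516 TPM with sums of 20369 to 21591 TPM, and H19 made up 63.6% of it. Igf2, the paternally expressed growth factor next to H19, which has a near-identical read-through model, stood at 1845 ± 144 TPM, and H19 exceeded it by 7.26-fold ± 0.523. Igf2r, the receptor that clears IGF2, stood at 315 ± 21.6 TPM. Peg10 and Mest stood at 1407 ± 58 and 979 ± 78.6 TPM, and 36% of the exon bases of Mest lie in Copg2, so its counts may be shared. The growth restrainers Cdkn1c and Phlda2 stood at 589 ± 88.1 and 573 ± 115 TPM.

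Markers of tissues that lie beside the yolk sac were summed in the same way. The parietal endoderm list summed to 162, 1152, 170 and 135 TPM, so control 2 was 6.76 times the highest of the others. Of its members with a mean of at least 5 CPM over the other 3 libraries, 4 of 4 were at least 2-fold higher in control 2, beside 0.408% of all genes. The lists were chosen with earlier results of these data known, so this count is a description only. The parietal endoderm list also holds Fst, the activin inhibitor, at 4.09, 187, 2.34 and 1.17 TPM. Its member Stc1 stood at 1.54, 1.07, 1.74 and 0.797 TPM and was not highest in control 2. The trophoblast and decidua list summed to 94.7, 669, 100.2 and 84.2 TPM. It had 4 members at 5 CPM or more over all 4 libraries, but 1 with the filter on the other 3. Of that 1 member, 0 was at least 2-fold higher in control 2, beside 0.408% of all genes. The trophoblast list member Esx1 stood at 51.2, 55.2, 66.8 and 66.7 TPM and was not highest in control 2.

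Heart muscle genes summed to 128, 49.2, 41.6 and 32.4 TPM, highest in control 1. By CPM, 7 of 9 members with a count were highest there (77.8%, against 22.8% of all genes at 5 CPM or more). Ryr2 was highest in control 2, at 6.49 against 4.58 TPM in control 1, and Nkx2-5 in control 3. Actc1 differed little between controls 1 and 2, at 28.5 and 26.8 TPM. Among members at 5 CPM or more over the other 3 libraries, 1 of 4 was at least 2-fold higher in control 1. The share of all genes was 0.0184%. Myl7, an atrial myosin light chain, stood at 39.3, 0.324, 4.82 and 1.78 TPM. The ventricular light chain Myl2 and the atrial peptide Nppa had 0 counts in all 4 libraries, which allows at most 0.0520 CPM over the group from counting error alone. Neural tube genes summed to 2.49 ± 1.29 TPM over 10 genes, and Neurog2 was also at 0. Somite genes summed to 2.71 ± 1.03 TPM over 3 genes.

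Spread between control libraries was small for most genes. Among 10870 genes at 5 CPM or more the median CV was 7.53%, and 66.6% of genes had a CV under 10%. The median CV beyond counting error was 5.82%. The common biological coefficient of variation from edgeR was 0.140. The median CV fell with level, from 11.8% at 5 to 20 CPM to 6.79% at 20 to 100 CPM and 5.29% at 100 to 1000 CPM. It was 7.03% over the 63 genes above 1000 CPM, where the 90th percentile reached 44.4%.

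Most of the variable genes were highest in control 2. The filter of 5 CPM used the mean of all 4 libraries, so genes high in 1 library only could pass through that library. Of 159 genes with a CV above 50% (1.46%), 93 were highest there (58.5%, against 24.3% of all genes at 5 CPM or more). Over the other 3 libraries, 68 of the 159 were still both at 5 CPM or more and above 50%. Genes that fell under 5 CPM there were not counted, whatever their CV. With Y-linked genes, Xist and unnamed gene models left out, the 15 most variable genes were Myh6, highest in control 1, and 14 highest in control 2. These 14 include the noradrenaline transporter Slc6a2, the nuclear receptor Nr4a3, Fst, the BMP antagonist Nog, the hyaluronidase Cemip and the placental hormone genes Prl3d1, Prl7a1, Prl4a1 and Prl8a2. Slc6a2 stood at 2.32, 128, 1.67 and 1.05 CPM, and Nog at 1.05, 29.6, 0.291 and 0.460 CPM. Among genes at 50 CPM or more the steadiest were Nufip2, Mprip and Cul7, with CVs of 0.419%, 0.457% and 0.472%, below what counting error gives at their level.

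Counts of genes set apart by 1 library differed between libraries. Control 2 held 84 genes at least 2-fold above the highest of the other 3 (0.773%). The low-count filter used the mean of all 4 libraries, so a gene high only in control 2 could enter through it. With the filter on the other 3 libraries, 44 genes were above (0.408%). Control 1 held 5 above (0.046%), which were Myh6, Ttn, Nepn, Onecut2 and Prox1, and 0 at least 2-fold below the lowest of the other 3. With the filter on the other 3 it held 2 above (0.0184%) and 5 below (0.0461%). Control 4 held 1 above (0.0092%), the stress-induced Trib3, and 26 below (0.239%), among them Shisa3, Fmo2 and Pgm5. With the filter on the other 3, 37 were below (0.339%). Control 3 held 5 above (0.046%), which were 4 Y-linked genes and Mir6236, and 19 below (0.175%), among them the glycosyltransferase gene B3gnt3 and Reln. With the filter on the other 3, 1 was above (0.00918%) and 20 were below (0.184%).

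**Figure D5:**
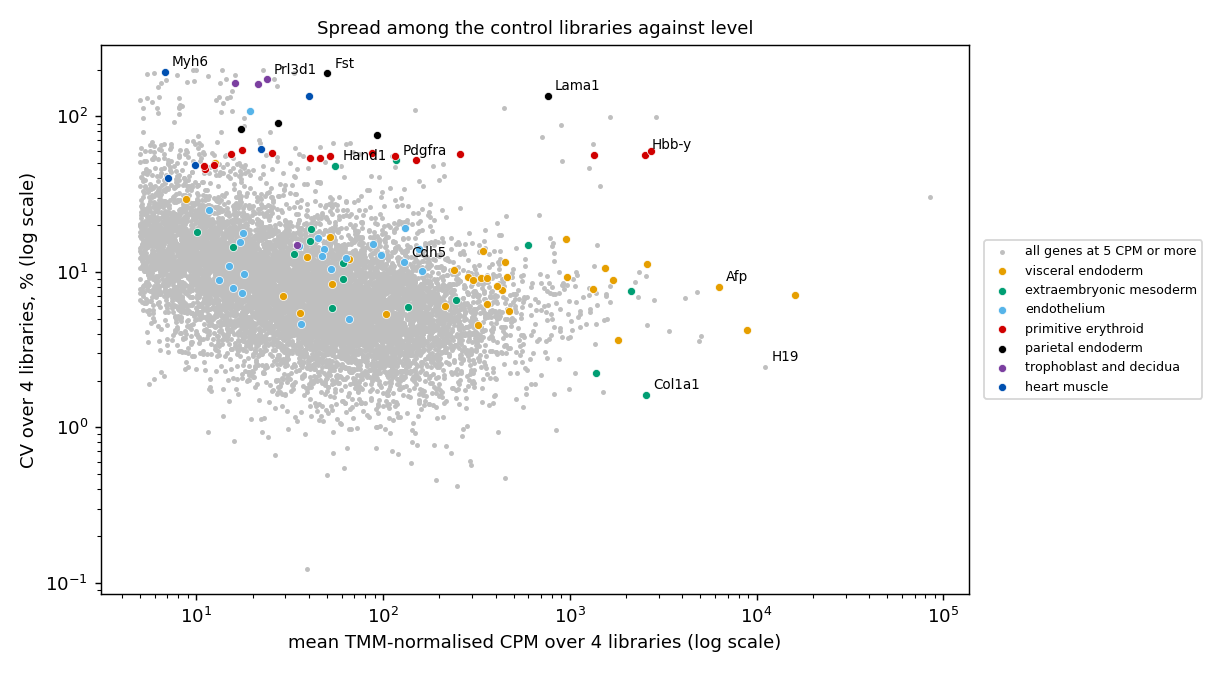
CV of each gene over the 4 control libraries against its mean level in TMM-normalised CPM, both on log axes, for genes at 5 CPM or more. Most genes lie under 10%, erythroid genes form a band near 50% at every level, and the parietal endoderm genes Fst and Lama1, the trophoblast gene Prl3d1 and the heart gene Myh6 lie above 100%.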

How the data were processed

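Mouse yolk sac RNA, extracted with a Roche tissue kit, went into KAPA mRNA HyperPrep libraries for bulk sequencing, per the labels. The aligner STAR (2.5.2b), featureCounts of Subread (1.5.1), edgeR and the build mm10 appear in the submitters' processing notes without settings. Raw read counts per gene and library were deposited by the authors, per the file headers, beside log2 FPKM values that the authors also deposited. Only the 4 control columns and the listed gene lengths were used for results. Deposited log2 FPKM exceeded values recomputed from the counts by a median of 0.02 to 0.04 per library.

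Levels are TPM over the listed genes without Rn45s. Spread was taken from CPM with TMM factors of the 4 libraries (edgeR 4.0.16, R 4.3.3), for genes with a mean of at least 5 CPM, and the counting part was removed as 1 over the mean count. The calculation was tested on simulated counts. No groups were compared. The only test was Dixon's, for a library far from the other 3. Depth was 13948560 to 15465289 counts per library, and limits from a count of 0 use 3 counts and cover counting error only. Of 430 genes named or listed, 428 were in GENCODE. These were checked for near-identical copies with BLAST+ 2.17.0 (95% identity over 300 bases and 30% of the transcript), and 28 had one. Named genes were the 6 given markers, the 30 most abundant, members of the gene lists, the 15 most and 10 least variable, genes set apart by 1 library and the 8 nearest Hand1. The members and lists were chosen with earlier results of these data known. Some genes that this rule names are left out of the text. A gene not listed was not analysed here. Alternatives left out each library, joined controls 1 and 2, kept Rn45s, used FPKM or DESeq2 1.42.0 size factors, and changed the low-count filter. Joining averaged the TPM for levels and summed the counts for spread.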

Additional observations from a re-analysis of the deposited data

Results flagged for a closer look

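Of 215 values checked, for 185 named genes and 30 lists, the following had 1 control library set apart, with a gap to the nearest other library above Dixon's 95% critical value for 4 samples, as a share of the whole range. Chance alone sets apart about 1 in 20 groups, but many of these genes were named because 1 library stood apart, so that rate does not apply to them. No explanation was tested. Control 2 was highest for the summed parietal endoderm list at 1152 TPM and the trophoblast and decidua list at 669 TPM. Single genes highest there were Lama1 at 672 TPM, Prl3d1 at 271, Fst at 187, Prl8a2 at 165, Prl7a1 at 150.3, Epas1 at 103, Prl4a1 at 101, Slc6a2 at 58.2, Sox7 at 43.2, Nog at 42.7, Snai1 at 36.3, Cemip at 23.8, Csf1r at 19.2, Sox17 at 14.9 and Nr4a3 at 11.3 TPM. Control 1 was highest for Myl7 at 39.3 TPM, Myh6 at 12.3, Alb at 5.53, Onecut2 at 5.49 and Ttn at 3.27. Control 3 was highest for Rdh10 at 35.5 TPM.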

How the results depend on the processing

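With FPKM in place of TPM the summed levels came out on a smaller scale, since their total per library is not fixed. The visceral endoderm list summed to 14797 FPKM with TMM scaling, 14798 with DESeq2 size factors and 15091 from the deposited values. The same 3 values were 1684, 1684 and 1717 for extraembryonic mesoderm, 419, 419 and 429 for endothelium, and 11007, 10996 and 11223 for primitive erythroid genes. The share of TPM in the 100 most abundant genes was 28% with Rn45s kept. The median CV was 10.1% with no low-count filter and 8.81% at a mean of at least 1 CPM. It was 6.73% with the counts of controls 1 and 2 summed as 1 library. Leaving out 1 library gave a median CV of 6.86% to 7.40%, lowest without control 2. The common biological coefficient of variation was 0.161 with no filter and 0.111 to 0.155 with 1 library left out, again lowest without control 2. Among the other lists and single genes examined, 6 of 196 means moved by over 1.5 times with 1 library left out. Without control 2 the parietal endoderm list fell to 156 TPM, the trophoblast and decidua list to 93 TPM and Lama1 to 71 TPM. Without control 1 the heart muscle list fell to 41.1 TPM, Alb to 0.522 and Myh6 to 0.0939. Filtering on the other 3 libraries gave 44 genes 2-fold above in control 2 in place of 84, 2 in place of 5 in control 1 and 1 in place of 5 in control 3, and 5 genes 2-fold below in control 1 in place of 0. The alternatives for the number of genes at 1 TPM, for the other lists, for single genes and for genes set apart by 1 library were chosen after seeing the data. Leaving out mitochondrially encoded genes was not run because none are listed. No paired analysis was possible because only 1 group is described. With 4 libraries, genes at low counts are limited by depth.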
